A study of Arabidopsis thaliana with 4 samples.

Results

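The genes described here had a higher transcript level in roots of the nai1-1 mutant of Arabidopsis thaliana than in roots of wild-type Col-0 on each of 4 two-colour arrays. There were 93 such genes among 9254 genes with a probe assigned to a single gene, which is 1.00% of them. To be a member, a gene needed a probe with no value of exactly 0. Its log2 ratio of nai1-1 over Col-0 also had to be 0.3 or more on each of the 4 arrays. Genes with a symbol or synonym that started with the prefix of a listed family were left out, as were 3 single loci. The prefixes were those of cytochrome P450, glycosyl and glutathione transferase, WRKY, ERF, NAC, MYB, bHLH, expansin, XTH, arabinogalactan and jacalin lectin genes. Genes of these families listed without such a symbol or synonym could stay in. Of 99 genes that met the value rule, 6 were left out in this way. The rule uses the genotype difference on all 4 arrays, so the members' ratios are given below as a description, with no test.

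Both groups were untreated roots, harvested from plants 20 days old. The mutant's source label on array 3 names no tissue, and that sample was taken as root like the others. The plants had been kept at 22 °C under constant light on plates of MS medium containing 1% sucrose, and each genotype's RNA came from a pool of 3 plants. The mutant group carries the allele nai1-1, and Col-0 carries no mutation named in the labels. Each array held both genotypes. The mutant carried the Cy3 label on arrays 1 and 4, and on arrays 2 and 3 it carried Cy5. Whether the 4 arrays stem from separate pools of plants is not stated in the labels, so spreads between arrays may be technical. All ratios are nai1-1 over Col-0 on the log2 scale, a direction that assumes the software wrote Cy5 over Cy3, as is its habit, since the submitters do not state it. If it wrote the inverse, each gene given here as higher would be lower.

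NAI1, a transcription factor of the basic helix-loop-helix type, is needed to form ER bodies, the rod-like compartments that Brassicaceae build from their endoplasmic reticulum. In roots these bodies hold the beta-glucosidase PYK10, an enzyme that acts on stored glucosides when cells are damaged. NAI1 is known as an activator of ER body genes, and the genes described here lie on the other side of the comparison. NAI1 itself was at -0.77, -1.21, -0.21 and -0.60 on arrays 1 to 4. PYK10 lay between -2.32 and -1.68. Under the inverse direction of the ratios, this ER body gene would be higher in the mutant of a known activator of such genes. The labels do not place the NAI1 probe relative to the lesion, so the NAI1 values do not check the genotype.

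Most members were less than 2-fold higher in the mutant. Their means over 4 arrays ran from 0.37 to 1.63, which is 1.29-fold to 3.10-fold, with a median of 0.61 (1.53-fold). A mean of 0.5 or more was found for 75 members, of 0.75 or more for 21, and of 1 or more for 4. On single arrays the members' medians were 0.61, 0.60, 0.60 and 0.51. For 20 members the lowest array was still at 0.5 or more, and for 6 it was at 0.7 or more. The standard deviation (SD) over the 4 arrays had a median of 0.18, and the median ratio of SD to mean was 0.30.

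**Figure D1:**
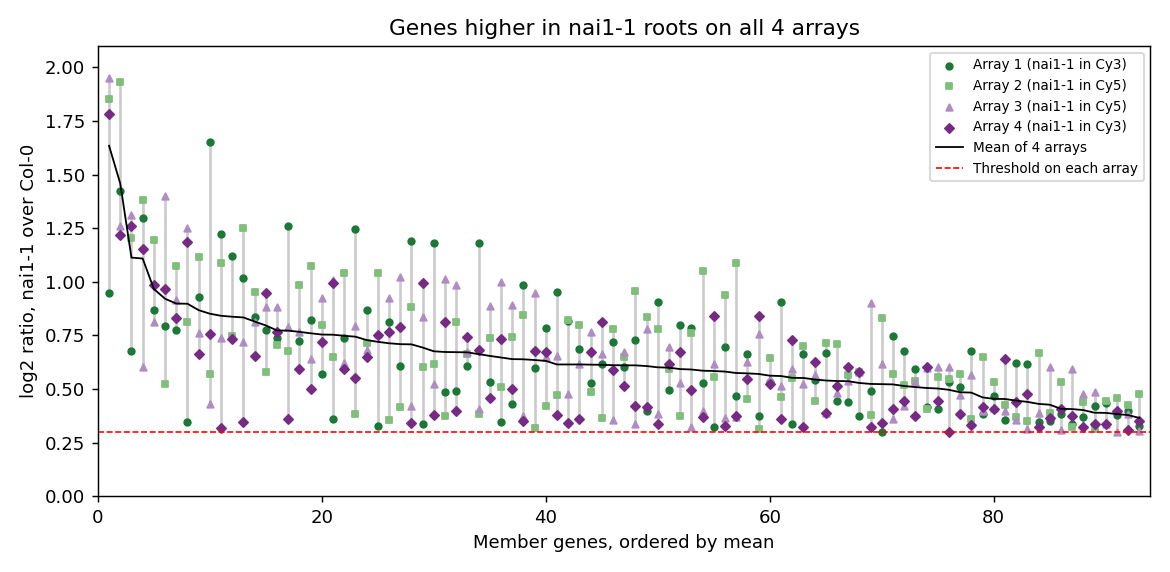
The log2 ratio (vertical axis) of each of the 93 members, ordered by mean (horizontal axis), on the 4 arrays, with a grey bar from lowest to highest array and a black line for the mean. Most means lie between 0.37 and 1, with 4 members at 1 or more, and the rule puts every point above the dashed threshold of 0.3.

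A gene name or a named synonym was listed for 12 of the 93 members in the gene table, and the other 81 carry a locus identifier alone and are given no role here. All 93 were listed as protein coding. The named members fall into cell wall hydrolysis, transcriptional regulation, signalling, cell cycle and chromatin, coumarin synthesis and clock-related genes.

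**Figure D2:**
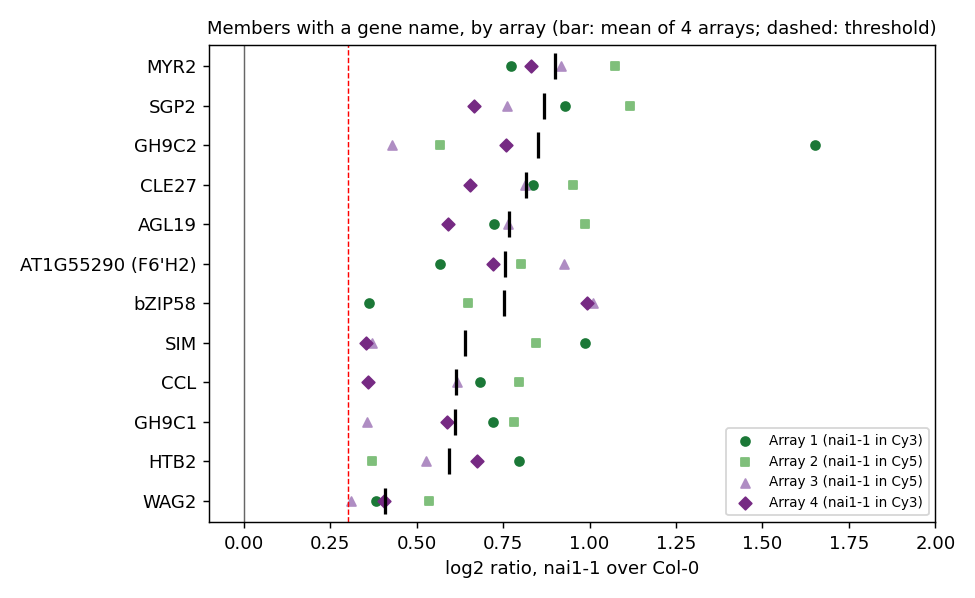
The log2 ratio of nai1-1 over Col-0 (horizontal axis) on each array for the 12 members with a gene name or named synonym, with a vertical bar at the mean of 4 arrays. MYR2 has the highest mean at 0.90 and WAG2 the lowest at 0.41, and GH9C2 has 1 array at 1.65 far from the other 3.

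Cell wall hydrolysis was represented by 2 cellulases of glycosyl hydrolase family 9, whose class C members carry a carbohydrate-binding module beside the endoglucanase domain. GH9C2 (AT1G64390) was at 1.65, 0.57, 0.43 and 0.76 on arrays 1 to 4, with a mean of 0.85 ± 0.55 (SD, n = 4). Array 1 was high and the other 3 lay close together. GH9C1 (AT1G48930) was at 0.72, 0.78, 0.36 and 0.59, a mean of 0.61 ± 0.19 (SD, n = 4), with no array apart.

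Of the 14 measured genes of the family, 2 were members and 4 were above 0 on each array, against 12.9% of all named genes, and the family median was 0.05 beside 0.02 over all named genes. GH9B8 was at 0.36, 0.52, 0.26 and 0.40 and missed the rule on array 3 alone. The third measured gene of class C, GH9C3, was at 0.20, 0.03, -0.44 and -0.27. It was above Col-0 on arrays 1 and 2 and below it on arrays 3 and 4.

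Transcriptional regulators among the named members were MYR2, AGL19 and bZIP58. MYR2 (AT3G04030), a MYB-related factor known to delay flowering, was at 0.77, 1.07, 0.92 and 0.83, a mean of 0.90 ± 0.13 (SD, n = 4) or 1.86-fold. AGL19 (AT4G22950), a MADS-box factor known to promote flowering, was at 0.72, 0.99, 0.76 and 0.59, a mean of 0.77 ± 0.16 (SD, n = 4). These 2 regulators were among the steadier members, with every array above 0.5. AGL19 was the single member among 36 measured AGAMOUS-like genes, whose median was -0.01. Of their 38 probes, 4 were above 0 on each array.

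bZIP58 (AT1G13600), a basic leucine zipper factor, was at 0.36, 0.65, 1.01 and 0.99, a mean of 0.75 ± 0.31 (SD, n = 4). Arrays 3 and 4 were high and array 1 was near the threshold. Among 10 measured genes with a bZIP name, bZIP58 was the single member and the median was -0.05.

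Signalling was represented by CLE27, SGP2 and WAG2. CLE27 (AT3G25905) encodes a peptide of the CLAVATA3/ESR-related family, secreted signals that act through receptor kinases. It was at 0.84, 0.95, 0.81 and 0.65, a mean of 0.81 ± 0.12 (SD, n = 4), and its arrays lay close together. The other measured CLE genes, CLE25 and CLE41, had means of 0.09 and 0.11, and each was below 0 on 1 array.

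SGP2 (AT3G21700), a small GTPase, was at 0.93, 1.12, 0.76 and 0.66, a mean of 0.87 ± 0.20 (SD, n = 4). WAG2 (AT3G14370), a protein kinase known to act on auxin efflux carriers and on root waving, was at 0.38, 0.53, 0.31 and 0.41, a mean of 0.41 ± 0.09 (SD, n = 4). WAG2 was the named member nearest to the threshold. The auxin response list covered IAA, SAUR, GH3, PIN and ARF symbols, but all 11 genes measured had IAA or GH3 symbols. Of these genes, 0 were members, 0 were above 0 on each array and 2 were below 0 on each array. Their median was -0.07. With limma on the probes without an exact 0, 0 of the 11 passed an adjusted p of 0.05, and 0 had an unadjusted p under 0.05, as 1495 of the 9247 named probes had in that fit.

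Cell cycle and chromatin genes were SIM and HTB2. SIM (SIAMESE, AT5G04470), an inhibitor of cyclin-dependent kinases known to promote endoreduplication in trichomes, was at 0.99, 0.84, 0.37 and 0.35, a mean of 0.64 ± 0.32 (SD, n = 4). Both arrays 1 and 2 were above both arrays 3 and 4. HTB2 (AT5G22880), a core histone H2B gene, was at 0.80, 0.37, 0.53 and 0.67, a mean of 0.59 ± 0.18 (SD, n = 4).

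HTB2 was not alone in its family in being above 0 throughout. All 4 measured H2B genes were above Col-0 on each of the 4 arrays, against 12.9% of all named genes. HTB4 was at 0.82, 0.29, 0.41 and 0.47 and missed the rule on array 2 alone, HTB11 had a mean of 0.32 and HTB1 of 0.29. The H2B family was looked at because HTB2 was a member, so this count is a description. Of the 4, only HTB2 passed limma's adjusted threshold on probes without an exact 0 (adjusted p = 0.0767 for HTB4, 0.265 for HTB1 and 0.274 for HTB11). That fit called 0.617% of probes higher. All 4 genes had an unadjusted p under 0.05 in it, as had 1495 of the 9247 named probes. HTB2's own call is part of the rule's contrast.

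Histone H3 genes, looked at for the same reason, showed a similar sign for some members of the family. H3.1 is the form deposited when DNA is replicated and H3.3 the replacement form. The H3.1 gene AT5G65360 was at 0.95, 0.94, 0.26 and 0.26, and the H3.1 gene AT5G10400 was at 1.03, 0.14, 0.09 and 0.23. HTR12, the centromeric H3, had a mean of 0.35 and was above 0 on each array. The H3.3 genes AT5G10980 and AT4G40040 had means of 0.17 and -0.05, and neither had the same sign on all arrays. With limma 0 of these 5 genes passed, with adjusted p-values from 0.133 to 0.898. Of the 5, 3 had an unadjusted p under 0.05, as had 1495 of the 9247 named probes, and the difference between H3.1 and H3.3 was not tested. Members of a histone family can be nearly identical, probe sequences were not analysed here, and signal shared between the genes was not assessed.

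**Figure D3:**
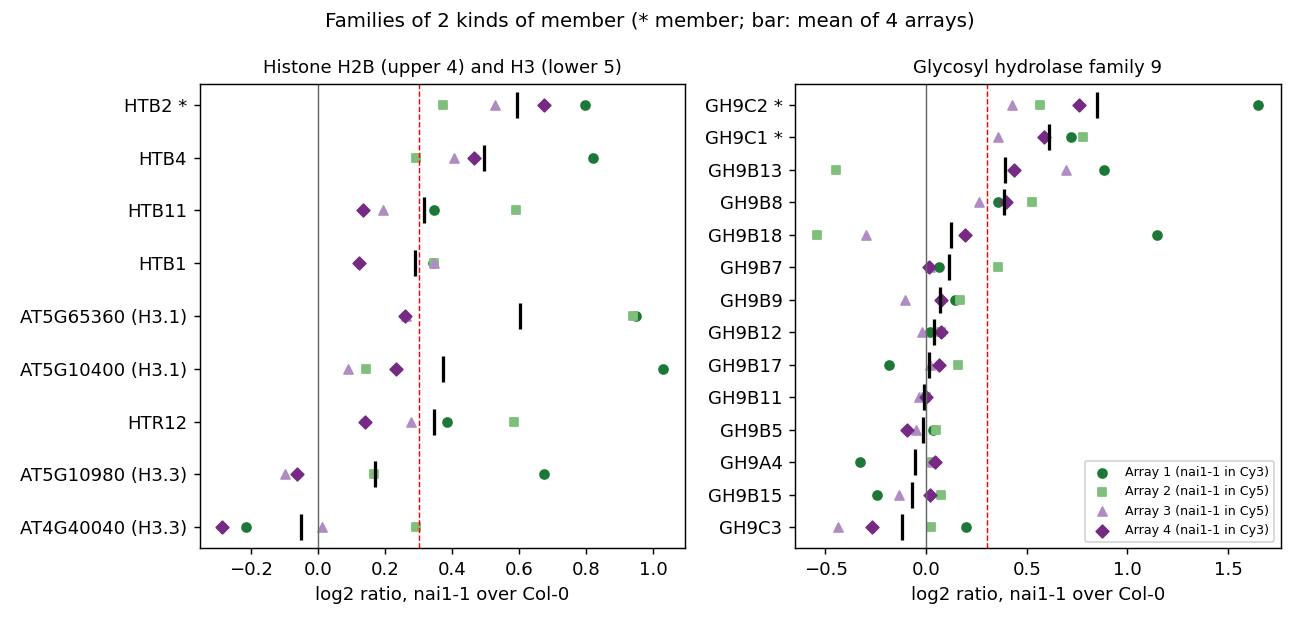
The log2 ratio of nai1-1 over Col-0 (horizontal axis) on each array for measured histone H2B and H3 genes (left) and glycosyl hydrolase family 9 genes (right), with a vertical bar at the mean of 4 arrays and an asterisk on members. The 4 H2B genes have all points above 0, while most family 9 genes scatter around 0 below GH9C2 and GH9C1.

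Coumarin synthesis was represented by AT1G55290, listed with the synonym F6'H2, a dioxygenase that hydroxylates feruloyl-CoA on the way to scopoletin. It was at 0.57, 0.80, 0.93 and 0.72, a mean of 0.75 ± 0.15 (SD, n = 4) or 1.69-fold. Its close relative F6'H1 (AT3G13610), the main enzyme of this step in roots, was at 0.15, 0.51, 0.01 and 0.06. F6'H1 was thus clearly above 0 on array 2 and close to 0 on arrays 3 and 4, and it did not pass limma's threshold (adjusted p = 0.576). The iron deficiency list, to which F6'H1 belongs, held 3 measured genes of 25, with 0 members. PYE and BHLH101 of that list had means of -0.37 and 0.33. BHLH101 carries a prefix that the rule leaves out, so it could not be a member.

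CCL (AT3G26740, CCR-like), a gene whose transcript is known to be short-lived and under clock control, was at 0.68, 0.80, 0.62 and 0.36, a mean of 0.61 ± 0.19 (SD, n = 4). Array 4 was the lowest.

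The largest ratios belonged to loci without a name. AT4G34560 was at 0.95, 1.85, 1.95 and 1.78, a mean of 1.63 ± 0.46 (SD, n = 4) or 3.10-fold. Array 1 was low and the other 3 lay close together. AT3G56220 was at 1.43, 1.93, 1.26 and 1.22, a mean of 1.46 ± 0.33 (SD, n = 4) or 2.75-fold, and was the member with the highest lowest array.

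AT4G08570 was at 0.68, 1.20, 1.31 and 1.26, with a mean of 1.11 ± 0.29 (SD, n = 4). AT5G04120 was at 1.30, 1.38, 0.60 and 1.15, with a mean of 1.11 ± 0.35 (SD, n = 4). Each had 1 array near 0.6 to 0.7 and 3 above 1, but the low array was array 1 for the first and array 3 for the second. AT4G14270 was at 0.87, 1.20, 0.81 and 0.99, AT1G64370 at 0.79, 0.52, 1.40 and 0.97, and AT3G22970 at 0.35, 0.81, 1.25 and 1.19.

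Further loci without a name had every array above 0.6. AT5G43150 was at 0.74, 0.70, 0.88 and 0.77, AT2G34620 at 0.87, 0.71, 0.68 and 0.65, and AT4G13710 at 1.12, 0.75, 0.75 and 0.73. The arrays of AT5G43150 and AT2G34620 lay close together, while array 1 of AT4G13710 stood above its other 3. Over all members the range from lowest to highest array had a median of 0.43, was under 0.2 for 17 and above 0.8 for 10. The remaining members with every array at 0.5 or more were also without a name. AT2G47830 was at 0.78, 0.58, 0.88 and 0.95, and AT1G68040 at 0.82, 1.07, 0.64 and 0.50. AT5G54660 was at 0.74, 1.04, 0.62 and 0.59, and AT1G63310 at 0.61, 0.66, 0.67 and 0.74. AT3G20450 and AT3G52900 had means of 0.61 and 0.56. The choice of every array at 0.5 or more leaves no array of these 6 loci near the threshold of 0.3. AT1G48330 had the smallest range, from 0.34 to 0.45, and GH9C2 the largest, of 1.22.

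Members just inside the threshold were AT4G16790, AT5G25590 and AT1G80690, with lowest arrays of 0.3003, 0.3006 and 0.3010. Just outside lay AT4G26770, YUC6 and AT4G21930, with lowest arrays of 0.2963, 0.2943 and 0.2940. YUC6 (AT5G25620), a flavin monooxygenase of auxin synthesis, was at 1.07, 0.34, 0.57 and 0.29. The other measured YUCCA genes, YUC2 and YUC4, had means of -0.02 and -0.09.

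The 6 genes that met the value rule but were left out by family were 3 expansins, a glutathione transferase and 2 single loci. The expansins, proteins that loosen cell walls, had means of 1.11 (EXPA15), 0.79 (EXPA9) and 0.59 (EXPA7), and GSTU25 had a mean of 0.70. AT5G08250 and AT5G48570 were at 1.48 and 0.92. These means lie within the range of the members.

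Since the rule used all 4 arrays, the same choice was repeated on 3 arrays at a time and read on the array left out, over 9118 named probes outside the excluded families. This alternative was chosen after seeing the data. By construction, the chosen genes at 0.3 or more on the array left out are the 93 members each time. Their shares thus restate the member count beside the number chosen and give no separate support. The arrays may also share RNA. Choosing on arrays 2, 3 and 4 gave 145 genes, whose median on array 1 was 0.40, and 64.1% of them were at 0.3 or more there, against 25.0% of all these probes. The medians on the array left out were 0.36 on array 2 (174 genes), 0.40 on array 3 (151 genes) and 0.28 on array 4 (207 genes). The share at 0.3 or more was 53.4% on array 2, 61.6% on array 3 and 44.9% on array 4, against 18.2%, 13.6% and 6.95% of all these probes. On the arrays left out, 79.3% to 92.1% of the chosen genes were above 0, against 48.9% to 53.4% of all these probes. The 93 members among them are above 0 by construction, so this share gives no separate support either. Of the chosen genes, between 35.9% and 55.1% fell short of 0.3. Between 0.483% and 6.90% were at -0.3 or less.

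Genes chosen in the same way for a lower level in nai1-1 passed the threshold more often on the array left out. The shares were 73.1%, 90.2%, 79.9% and 93.2% on arrays 1 to 4. With the sign turned, the rule found 342 genes lower in nai1-1 against the 93 higher ones. By construction, these 342 are the genes that passed on each array left out. Their median mean was -0.90 against 0.61, and 41.2% had a mean of 1 or more in size against 4.30% of the members. The value rule alone, before families were left out, was met by 1.07% of the 9247 named probes without an exact 0 in the higher direction and by 3.84% in the lower direction.

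**Figure D4:**
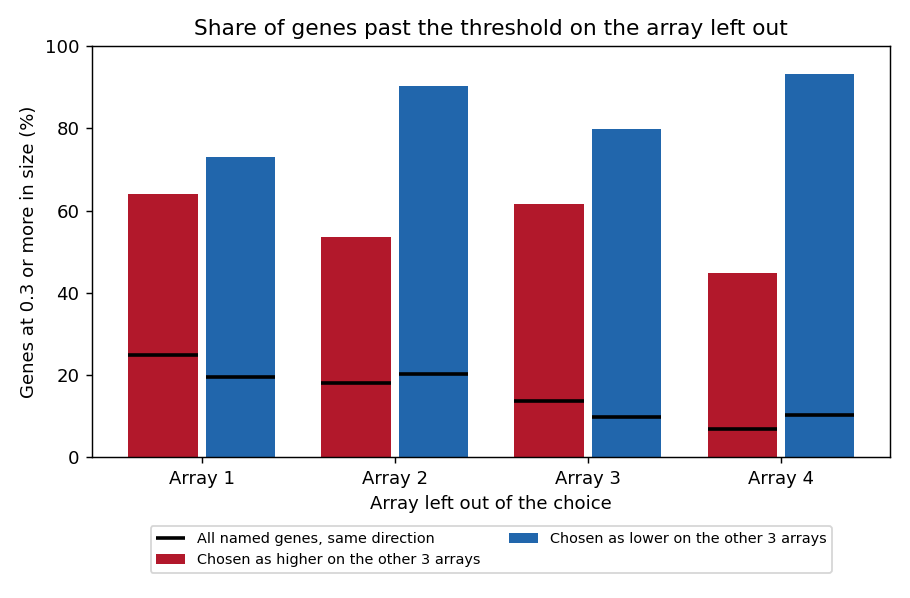
Share of genes (vertical axis, percent) at 0.3 or more in size, in the direction of choice, on the array left out of the choice (horizontal axis), for genes chosen as higher (red) or lower (blue) on the other 3 arrays, with black lines for all named probes used. The red bars run from 44.9% to 64.1% and lie above their black lines and below the blue bars on each array. By construction, the genes past the threshold are the same in every bar of a colour.

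With choice and reading on 2 arrays each, the shares past 0.3 differed with the arrays that chose, and so did those of all these probes. The 93 members are past 0.3 in every such split by construction. The spread over all probes also differed between arrays, and its part in this was not tested. Genes chosen on arrays 1 and 2 (728 genes) had a median of 0.10 on arrays 3 and 4, and 22.1% of them had a mean of 0.3 or more there, against 7.46% of all these probes. Genes chosen on arrays 3 and 4 (351 genes) had a median of 0.25 on arrays 1 and 2, and 47.0% were at 0.3 or more, against 15.9%. With arrays 1 and 3 choosing (433 genes), the median on arrays 2 and 4 was 0.26. There 44.6% were at 0.3 or more, against 8.26%. With arrays 2 and 4 choosing (229 genes), the median on arrays 1 and 3 was 0.46. There 73.4% were at 0.3 or more, against 15.1%. Choosing on the arrays with nai1-1 in Cy3 and reading on those with it in Cy5 gave a median of 0.32 over 328 genes. The opposite choice gave 0.26 over 413 genes. On the arrays of opposite orientation 6.71% and 1.21% of the genes, respectively, were at -0.3 or less.

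Arrays 1 and 2 ordered many members differently from arrays 3 and 4. For 30 members both arrays 1 and 2 were above both arrays 3 and 4, and for 21 members the reverse held. Together these are 54.8% of the members, against 50.9% of the genes lower on 4 arrays and 36.7% of all named probes without an exact 0. SIM was among the first kind. AT1G33750, also of the first kind, was at 1.19, 0.88, 0.42 and 0.34. The second kind included bZIP58 and AT3G22970. No label names these pairs of arrays, and the spread over all probes also differed between them. Its median absolute deviation was 0.26 on array 1 and 0.22 on array 2, but 0.15 on array 3 and 0.12 on array 4. The part of shared RNA, slide or day in this was not tested.

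Across the 93 members the Pearson correlation of array 3 with array 4 was 0.75. For array 1 it was 0.39 with array 2, 0.11 with array 3 and 0.16 with array 4. Array 2 had 0.38 with array 3 and 0.40 with array 4, much as with array 1. Over all named probes without an exact 0, arrays 3 and 4 gave 0.76, arrays 1 and 2 gave 0.39 and arrays 1 and 3 gave 0.33. There arrays 1 and 4 gave 0.51, arrays 2 and 3 gave 0.51 and arrays 2 and 4 gave 0.54. Arrays 1 and 2 thus did not stand out as a pair by correlation. These are correlations across genes, which are not independent, and the threshold cuts off the members' lower range.

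**Figure D5:**
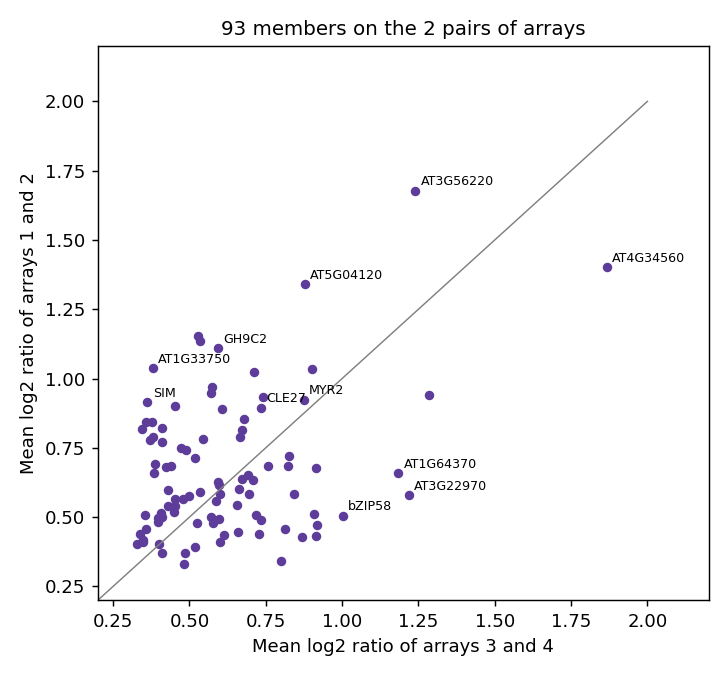
Mean log2 ratio of arrays 1 and 2 (vertical axis) against that of arrays 3 and 4 (horizontal axis) for the 93 members, with a line of equal values and 11 members labelled. SIM and GH9C2 lie above the line, bZIP58 and AT3G22970 below it, and MYR2 close to it.

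The dye effect, taken as Cy5 over Cy3, is a contrast the rule did not set out to use, but a threshold on every array leaves a member little room for a large one. With limma on the 21559 probes without an exact 0, the dye term passed an adjusted p of 0.05 for 0 of 93 members, against 1.2% of all probes. At an unadjusted p under 0.05 it was also 0 members, against 5.58% of probes. The largest dye effects were -0.35 for GH9C2, -0.27 for AT5G11550 and 0.27 for AT4G34560, each with an adjusted p of 0.856. The median size was 0.06 in the members and 0.09 over all named probes without an exact 0.

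In the genotype fit the members' calls follow from the rule and are given as counts. With limma on all 22575 probes, 0 of 93 members passed an adjusted p of 0.05 in the higher direction, where 0.0133% of probes did. All 93 had an unadjusted p under 0.05 in that fit, as had 1262 probes with a higher level. On the 21559 probes without an exact 0, 47 members passed, where 0.617% of probes did. Without array 2 or array 3 that count was 3 or 4, without array 1 it was 22 and without array 4 it was 35. With arrays 1 and 2 and arrays 3 and 4 averaged as 2 replicates it was 1, and with the arrays scaled to 1 spread it was 0.

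Members were spread over all 5 chromosomes, with 25, 11, 22, 11 and 24 genes on chromosomes 1 to 5. These are 26.9%, 11.8%, 23.7%, 11.8% and 25.8% of the members, against 27.2%, 14.4%, 19.9%, 14.6% and 23.8% of all named genes. In the order of protein-coding genes (RefSeq, TAIR10.1), 0 members were direct neighbours. The closest were AT1G64370 and GH9C2 with 2 genes between them, then AT5G48760 and AT5G48800 with 3, and 12 members had another member with at most 10 genes between. The 67 measured genes directly beside a member had a median of 0.01, and 55.2% of them were above 0, against a median of 0.02 and 55.1% over all named genes.

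Lists of root and stress functions, drawn by locus, symbol or synonym, held 0 members wherever they were measured. A member without a name could belong to such a function and not be counted. Of 32 root hair genes 2 were measured, the expansins EXPA7 and EXPA18 (means of 0.59 and 0.38). Both carry the expansin prefix that the rule leaves out, so the count of 0 members was fixed for this list. EXPA7 met the value rule and was left out by family, so its ratio is given with no test. Of 16 ER folding genes 6 were measured, with 0 members and a median of 0.10, and with limma 0 of them passed and 0 had an unadjusted p under 0.05. BIP1, an ER chaperone gene, was at 1.05 on array 1 and between -0.02 and 0.17 on the others. Of 13 photosynthesis genes, markers of shoot tissue, 4 were measured, with means from -0.18 to -0.09. With limma 0 of them passed and 0 had an unadjusted p under 0.05. That fit, on probes without an exact 0, called 0.617% of probes higher and 2.99% lower. An unadjusted p under 0.05 was found for 1495 of the 9247 named probes. With so few genes measured, counts of 0 say little about either list.

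Of 6 genes listed by symbol or synonym as class III peroxidases, 0 were members. Peroxidase genes listed under a locus identifier alone were not counted. Among the 6, AT5G64120 fell by 0.73 (adjusted p = 0.017 with limma, below 0 on 4 of 4 arrays), in a fit that called 2.99% of probes lower. The call was lost without array 2 (adjusted p = 0.128) or array 3 (adjusted p = 0.0747). Neither of the 2 genes with a heat shock symbol was a member. The Hop co-chaperones, which link HSP70 and HSP90, included a gene just short of the rule: Hop3 (AT4G12400) was at 0.76, 0.29, 1.12 and 0.91, a mean of 0.77. Hop2 and Hop1 had means of 0.37 and 0.16. The Hop and YUCCA families were looked at because a gene of each lay just short of the threshold, so their ratios are given with no test. Phosphate starvation, nitrogen, suberin and Casparian strip, aquaporin, endodermis, stele and root cap lists could not be described, since none of their genes was named on a probe used here. The arrays give ratios, so the presence of root marker transcripts could not be checked as a level, and in whole roots fewer cells of a type and less RNA per cell cannot be told apart.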

How the data were processed

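The values analysed are 1 log10 ratio per probe and array, deposited by the authors. Per the submitters' processing notes they were made with Agilent Feature Extraction 7.1, whose background and dye settings none of the sources at hand gives. Targets were made from 5 µg of total RNA by linear amplification, per the labels' protocols. Ratios were converted to log2 and arrays 1 and 4 turned to nai1-1 over Col-0, with no further normalization (array medians between -0.00 and 0). No intensity, detection or saturation flag was used, so dim and saturated spots stayed in, and precision is limited by having 4 arrays.

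Of 22575 probes, 9335 had 1 gene in the platform annotation, 40 had several and 13200 were not listed. Of the 9335, 9317 matched the RefSeq gene table (TAIR10.1). At least 1 exact 0 was held by 1016 probes. limma 3.58.1 in R 4.3.3 (lmFit, eBayes, two-sided, Benjamini-Hochberg) was fitted with genotype and dye terms on all probes and on the 21559 probes without an exact 0, and was tested on simulated data. Numbers in parentheses called adjusted p come from the second fit.

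Members, lists and families were chosen with earlier results of these data known. Named members are the 10 with the highest lowest array, the 10 with the highest mean, the 10 with the smallest p, those with a gene name, those with large dye effects and those at the threshold; other loci named were chosen after their values were seen. Functional classes rest on symbols and synonyms, since the gene table used here holds no descriptions. Promoter motifs and protein similarity, planned, were not analysed here.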

Additional observations from a re-analysis of the deposited data

Results flagged for a closer look

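Among the 93 members, 6 had 1 array far from the other 3 (Dixon's test on 4 values), or 6.45%. About 1 in 20, here 4.65 genes, is the share that chance flags. The array apart was array 1 for 3 genes, array 2 for 2 genes and array 3 for 1 gene.

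Array 1 gave 0.95 for AT4G34560 against 1.78 to 1.95 on the other arrays. It gave 1.12 for AT4G13710 against 0.73 to 0.75, and 0.38 for AT5G48500 against 0.58 on each of the others. Array 2 gave 1.09 for AT3G51750 against 0.37 to 0.47, and 0.65 for AT1G56220 against 0.39 to 0.42. Array 3 gave 0.60 for AT1G52660 against 0.35 to 0.39. GH9C2, with 1.65 on array 1 against 0.43 to 0.76, did not pass this test.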

How the results depend on the processing

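The number of members followed the rule's own settings. Asking 3 arrays in place of 4 gave between 145 and 207 genes, and all 93 members were among them by construction. A threshold of 0.2 gave 209 and one of 0.5 gave 20, and a mean of 0.3 with the same sign on each array gave 506. Median centring and keeping exact 0 values left 93. Scaling the arrays to 1 spread gave 94 genes, of which 68 were members, and bZIP58 and WAG2 were among the 25 lost.

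Genotype calls with limma on all probes numbered 112, 0 without any single array, 0 with scaled arrays, 0 with arrays averaged as 2 replicates and 394 without the dye term. Where the count was 0, between 1754 and 3311 probes had an unadjusted p under 0.05. On probes without an exact 0 they numbered 778, between 205 and 939 without a single array (205 without array 2, 222 without array 3), 0 with scaled arrays (3348 at an unadjusted p under 0.05) and 121 with arrays averaged as 2 replicates. The cause of these changes was not tested. Of 234 values of 26 named members under alternatives, 233 stayed within 1 SD of the reported mean. In 1 case the value moved further (AT5G43150 with scaled arrays), and 0 changed sign, with 0.34 as the lowest. These counts were largely fixed in advance and do not show robustness. Dropping the dye term, averaging arrays and array weights left the means unchanged. The rule puts every array at 0.3 or more, which leaves no room for a change of sign. The dye term of limma passed for 0 members in each alternative, with at most 3 members at an unadjusted p under 0.05. Since a threshold on every array leaves members little room for a dye effect, these counts give no separate support. AT5G64120 also missed limma's threshold with scaled arrays (adjusted p = 0.0960) and with arrays averaged as 2 replicates (adjusted p = 0.0890). No paired analysis was possible because the genotypes are already paired within each array's ratio and no second group shares the replicate numbers. The promoter window alternative was not run.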

Other observations

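The rule was also met by probes without a gene name. Of 12312 unnamed probes without an exact 0, 117 were at 0.3 or more on each array and 352 at -0.3 or less.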
